A study of Arabidopsis thaliana with 8 samples.

Results

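ATL8 (AT1G76410) and BRH1 (AT3G61460) are Arabidopsis thaliana genes for RING-H2 finger proteins, and their transcripts were followed in shoots of seedlings with and without heat. Each gene is read by 1 probe set of the ATH1-type array that the annotation pairs with that gene alone, so these are 2 of the 13356 genes read by such a probe set. Both lay among the 15919 of 22746 probe sets bright enough to be tested. The pair was chosen by its heat values, since both transcripts were lower at 37 °C than at 22 °C, so the heat differences are given as a description and without a test. No test of heat on either gene was independent of that choice.

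The groups were shoots of the hsa32 knockout after 2 h at 37 °C, the knockout at 22 °C, wild type after 2 h at 37 °C, and wild type at 22 °C. All seedlings were of ecotype Col-0 and 15 days old. The knockout carries the T-DNA insertion GABI-268A08 in HSA32 (AT4G21320), a heat-induced gene of long-term acquired thermotolerance, and it is a single insertion line per the labels. Each group held 2 arrays, each from a separate pool of plants, with about 100 plants pooled per treatment per the series design. In bulk shoots, fewer cells that express a gene and less RNA per cell cannot be told apart.

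RING-H2 proteins are E3 ubiquitin ligases: the zinc-binding RING domain holds an E2 enzyme charged with ubiquitin and passes the ubiquitin to a target protein, often marking it for the proteasome. The ATL family, to which ATL8 belongs, consists of membrane-anchored RING-H2 ligases, many of which respond early to elicitors or to nutrient status. ATL8 is known as a gene induced when sugar runs short. BRH1 was named for a transcript that brassinosteroids, the plant steroid hormones of growth, lower, and that a fungal elicitor, chitin, raises. Levels below are the signals deposited by the authors, in linear units scaled to the same trimmed mean on every array. Differences are on the scale of log2(signal + 29), which understates changes of dim transcripts.

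The HSA32 probe set read 378 and 589 in the heated knockout, against 23175 and 9240 in heated wild type, by replicate. At 22 °C it read 1125 and 1247 in the knockout, against 657 and 230.0 in wild type. Whether the probe set reads sequence before or after the insertion is unknown here, and its remaining signal in the knockout is no check of the genotype labels by itself. The arrays of wild-type replicate 1 lay at one end of the arrays: on the second principal component, which held 22% of the variance, they lay at 67.8 (heat) and 46.5 (control), against -41.9 to 12.5 for the other arrays, with knockout control replicate 1 lowest. Values that rest on these arrays are therefore given with and without them. Of the leaf markers, RCA (Rubisco activase) was the one with a single-gene probe set, and it lay between 16090 and 36539 on the 8 arrays. Of 4 measured root markers, AT3G01190, AT5G17820 and EXPA7 read at most 96.8 on any array. PYK10, a beta-glucosidase gene listed here as a root marker, read from 2095 to 9287.

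ATL8 was far lower in heated than in control shoots of both genotypes. In the knockout its signal was 158 and 95.6 after heat, against 4952 and 2527 at 22 °C, by replicate. The lowest control value was 16.0 times the highest heated one. The heated mean of 127 ± 44.0 was 3.39% of the control mean of 3740 ± 1715 (SD, n = 2 each). On the log2 scale the difference was -4.55 ± 0.79 (SE), and only 3 of the 15919 tested probe sets lay lower.

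In wild type ATL8 read 705 and 82.3 after heat, against 2321 and 4352 at 22 °C. Here the lowest control value was only 3.29 times the highest heated one. The heated mean was 394 ± 440 and the control mean 3337 ± 1436 (SD, n = 2 each), which puts the heated mean at 11.8% of the control mean. The log2 difference was -3.49 ± 0.79. The heated wild-type arrays differed 8.57-fold from each other, and 98.9% of the tested probe sets had a smaller gap between these arrays. Without heated replicate 1 the wild-type difference became -4.85, and without heated replicate 2 it became -2.13. Without both wild-type arrays of replicate 1 it was -5.30.

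BRH1 was lower after heat in both genotypes as well. In the knockout it read 494 and 262 after heat, against 5919 and 2718 at 22 °C. The lowest control value was 5.51 times the highest heated one. The means were 378 ± 163 after heat and 4319 ± 2263 at 22 °C (SD, n = 2 each), so that 8.75% of the control mean was left. The log2 difference was -3.37 ± 0.50, in place 23 of 15919 from the lowest.

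In wild type BRH1 read 571 and 344 after heat, against 2061 and 3367 at 22 °C. The lowest control value was 3.61 times the highest heated one. The means were 458 ± 160 after heat and 2714 ± 924 at 22 °C (SD, n = 2 each), which leaves 16.9%. The log2 difference was -2.49 ± 0.50, in place 34 from the lowest, and -3.19 without both wild-type arrays of replicate 1. Across the whole array, limma called 3.66% of the tested probe sets lower after heat in the knockout and 0.71% in wild type, at an adjusted p under 0.05. The median log2 difference of all tested probe sets was -0.26 in the knockout and -0.22 in wild type. Since both genes were picked for these differences, nothing is read from their place among them or from the lack of overlap between their groups. The share of all tested probe sets whose groups of 2 arrays do not overlap was not computed.

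**Figure D1:**
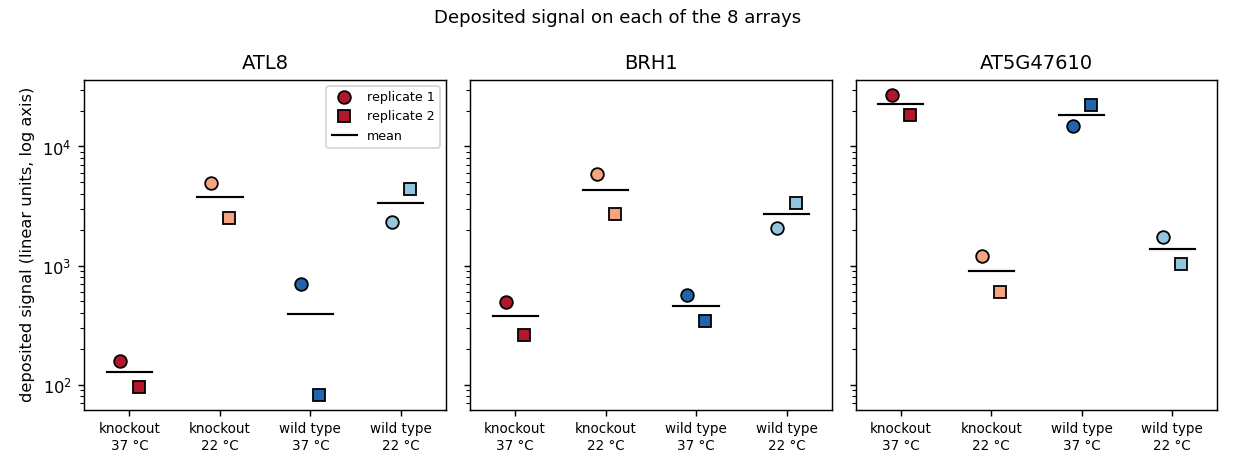
Deposited signal (linear units on a log axis) of ATL8, BRH1 and AT5G47610, a further listed ATL family locus, in knockout and wild-type shoots at 37 °C and 22 °C. Circles are replicate 1, squares replicate 2 and bars the mean of the 2 arrays. For ATL8 and BRH1 every heated array lies below every control array, for AT5G47610 every heated array lies above, and the heated wild-type arrays of ATL8 (705 and 82.3) lie far apart.

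By mean signal both genes had the same order of groups, with the knockout at 22 °C highest, then wild type at 22 °C, then heated wild type, then the heated knockout. The neighbours at each end of that order overlapped: the knockout and wild-type controls could not be separated by their arrays for either gene, nor could the heated groups.

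Whether loss of HSA32 altered either transcript was a question the choice of genes did not use. At 22 °C ATL8 differed by 0.15 ± 0.79 between knockout and wild type on the log2 scale, with a 95% interval in limma from -1.65 to 1.95 (adjusted p = 1). BRH1 differed by 0.60 ± 0.50, with an interval from -0.54 to 1.75 (adjusted p = 1). Neither passed, and the intervals still allow a difference of over 1 log2 unit, upward for both genes and also downward for ATL8. Without both wild-type arrays of replicate 1 the values were -0.30 for ATL8 and 0.25 for BRH1. In this comparison limma called 0 of 15919 probe sets (0%), against 82 (0.515%) at an unadjusted p under 0.05. That share is lower than the threshold alone would give on average with no difference.

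Apart from wild-type replicate 1, the heated arrays read ATL8 between 82.3 and 157.8. These values lie within or below the range of the array medians, 131.3 to 181.35. Without detection calls, how much of that dim signal lies above background is not known. This limits the comparison after heat and the share of ATL8 signal left after heat. After heat ATL8 was at -0.91 ± 0.79 in the knockout relative to wild type, with an interval from -2.71 to 0.89 (adjusted p = 1). Without heated wild-type replicate 1 the sign turned, to 0.45, and without heated wild-type replicate 2 the value was -2.27 (adjusted p = 0.21). BRH1 was at -0.28 ± 0.50, with an interval from -1.42 to 0.87 (adjusted p = 1), and at 0.06 without that array. For ATL8 the direction between the genotypes in heated shoots therefore rests on 1 wild-type array, and for BRH1 the direction is not settled. Leaving out heated knockout replicate 2 also turned BRH1, to 0.14. Limma called 0 of 15919 probe sets here (0%), with 280 (1.76%) at an unadjusted p under 0.05. Even the disrupted gene HSA32, at -4.87 ± 0.57, did not pass in limma (adjusted p = 0.23). The lack of a call for ATL8 and BRH1 is thus little evidence of no difference.

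The heat difference of the knockout minus that of wild type was -1.06 ± 1.12 for ATL8 (interval -3.60 to 1.49) and -0.88 ± 0.71 for BRH1 (interval -2.50 to 0.74), each with adjusted p = 1 in limma. Neither gene was shown to respond differently in the knockout. This comparison uses the same arrays as the heat differences on which the genes were picked. For ATL8 it became 0.30 without heated wild-type replicate 1, -2.42 without heated wild-type replicate 2 and 0.75 without both wild-type arrays of replicate 1. For BRH1 it became -0.19 without both. No probe set passed in limma (0%), and 88 (0.553%) had an unadjusted p under 0.05. HSA32, at -6.39 ± 0.80, did not pass either (adjusted p = 0.42).

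**Figure D2:**
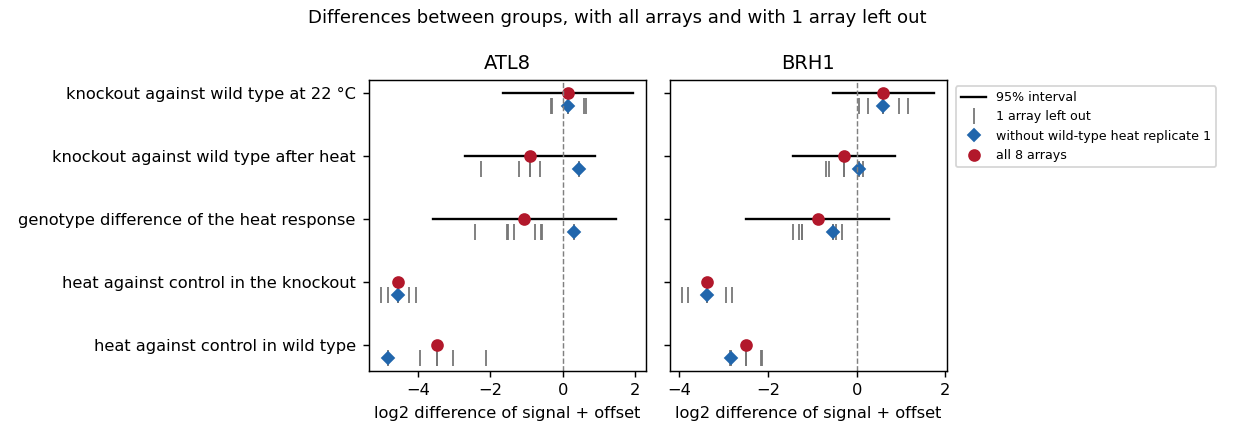
Log2 differences of ATL8 and BRH1 in the 5 comparisons (red dots, all 8 arrays; black lines, 95% intervals from limma, drawn only for the 3 comparisons the genes were not picked on; grey ticks, each array left out in turn; blue diamonds, without heated wild-type replicate 1). The heat differences stay below 0 throughout, from -5.03 to -2.13 for ATL8, whereas the ATL8 difference after heat crosses 0 to 0.45 without heated wild-type replicate 1.

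In each of the 4 groups the gap between the replicate pools ran the same way for both genes. In the controls both genes ordered the arrays alike, with knockout replicate 1 highest, then wild-type replicate 2, knockout replicate 2 and wild-type replicate 1. That order was shared by 10.4% of the tested probe sets. On the log2 scale knockout control replicate 1 exceeded replicate 2 by 0.96 for ATL8 and 1.11 for BRH1, and 91.7% and 95.2% of the tested probe sets had a smaller gap, in the same gene order. In the heated shoots wild-type replicate 1 was highest for both genes, and knockout replicate 1 came next. The lowest heated array was wild-type replicate 2 for ATL8 and knockout replicate 2 for BRH1.

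Many transcripts that were lower after heat in the knockout shared the wild-type part of this pattern. Of the 582 probe sets called lower there, 384 (66%) read higher in heated wild-type replicate 1 than in replicate 2, against 52.1% of all tested probe sets. In the wild-type controls, 445 of them (76.5%) read lower in replicate 1 than in replicate 2, against 47.9% of all. PYK10 was lower in wild-type replicate 1 than in replicate 2 both after heat (2095 against 5230) and at 22 °C (3231 against 9287), so it ran the way of ATL8 and BRH1 in the controls and the opposite way in heated wild type. The knockout part of the pattern was not shared in this way. Of the 113 probe sets called lower after heat in wild type, 46% read higher in heated knockout replicate 1 than in replicate 2, against 44.4% of all, and 41.6% did so in the knockout controls, against 40% of all. The part of the wild-type shifts in the ATL8 and BRH1 values was not tested.

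Among the other ATL family genes tested, none was called lower after heat and 1 was called higher. Of 51 listed family loci, 32 had a single-gene probe set and 20 were bright enough to be tested. The loci were listed from general knowledge of the family, and the gene table gave 13 of the 51 a name of that family. The 12 family loci left out as dim averaged below the signal of 61.7 at which probe sets were filtered. The mean was over heated and control arrays, so a locus that falls to a low signal can be removed. ATL63 read 8.4 and 3.8 in the heated knockout, against 51 and 90.3 in its controls. In wild type it read 12.9 and 8 after heat, against 119.4 and 75.4 in the controls. AT2G37580 was higher after heat in wild type, at 17.9 and 101.6 against 8.4 and 6.6. Neither was tested, and how much of such dim signal lies above background is not known. Among the 19 tested loci other than ATL8, limma called 1 higher and 0 lower after heat in the knockout, and the same counts in wild type. Their median log2 difference was -0.43 in the knockout and -0.16 in wild type, beside -0.26 and -0.22 over all tested probe sets. Of all tested probe sets, 3.13% were called higher and 3.66% lower in the knockout, and 1.84% higher and 0.71% lower in wild type. At these shares a count of 0 lower among 19 loci is near the background.

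The locus that rose was AT5G47610. It read 27182 and 18490 in the heated knockout, against 1208 and 602 in the knockout at 22 °C. In wild type it read 14874 and 22220 after heat, against 1752 and 1022 at 22 °C. Every heated array lay above every control array of its genotype and of the other. The rise was 4.67 ± 0.45 on the log2 scale in the knockout (limma adjusted p = 0.00055) and 3.73 ± 0.45 in wild type (adjusted p = 0.0025). Without both wild-type arrays of replicate 1 the wild-type rise was 4.40 (adjusted p = 0.0033). Its knockout minus wild-type values of -0.63 at 22 °C and 0.30 after heat did not pass (adjusted p = 1 each).

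With all 8 arrays, the remaining 18 tested family loci did not pass in either genotype, with log2 differences from -1.46 to 1.25 in the knockout and from -1.07 to 0.50 in wild type. RING1, a RING-H2 ligase gene of the plasma membrane linked to programmed cell death, was at -0.12 in the knockout and -0.09 in wild type. AT1G49200 was at -1.19 ± 0.37 in the knockout (adjusted p = 0.09) and -0.72 in wild type, and it passed as lower in the knockout without both wild-type arrays of replicate 1 (adjusted p = 0.028). AT3G18930, named here after its values were seen, had the lowest knockout difference of the 18, at -1.46 (adjusted p = 0.15), and -0.92 in wild type. Without heated wild-type replicate 1 it passed as lower in the knockout (adjusted p = 0.024) and in wild type at -1.84 (adjusted p = 0.029).

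The other tested RING and U-box genes had no call after heat. Of 27 listed RING and U-box ligase genes outside the ATL family, 6 had a single-gene probe set and all 6 were tested. Of the 5 other than BRH1, 0 passed in limma in either direction after heat in either genotype, beside 3.66% and 0.71% of all tested probe sets called lower in the knockout and in wild type. XERICO, a RING-H2 gene whose product raises abscisic acid levels, averaged 973 ± 272 after heat and 878 ± 180 at 22 °C in the knockout. In wild type it averaged 964 ± 88.9 after heat and 921 ± 63.6 at 22 °C (SD, n = 2 each). Its log2 differences were 0.13 and 0.06. RHF1A, a RING-H2 gene of gamete formation, was at -0.02 in the knockout and -0.14 in wild type. The U-box ligase genes PUB22, PUB23 and PUB24, which restrain immune signalling, lay between -0.89 and -0.16 in the knockout and between -0.58 and -0.39 in wild type.

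**Figure D3:**
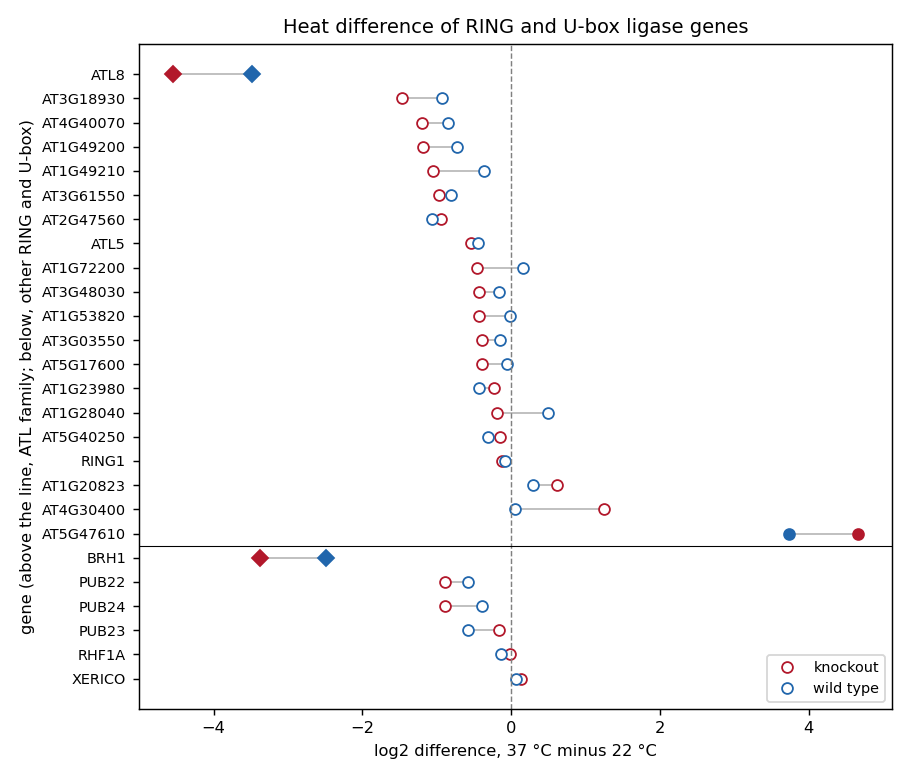
Heat log2 differences (37 °C minus 22 °C) of the tested ATL family loci, above the line, and of other RING and U-box ligase genes, below it, in the knockout (red) and wild type (blue). Diamonds mark ATL8 and BRH1, which have no test, filled circles mark limma calls and open circles mark loci that did not pass. AT5G47610 rises by 4.67 and 3.73 while ATL8 lies at -4.55 and -3.49, and the other 18 family loci lie between -1.46 and 1.25.

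Few genes of the pathways that the names of ATL8 and BRH1 point to were measured by single-gene probe sets. Of 31 listed genes of sugar and energy starvation, 3 were tested and 0 passed after heat, which at the shares called over all probe sets (3.13% higher and 3.66% lower in the knockout, 1.84% and 0.71% in wild type) does not set them apart. AKINBETA1, a regulatory subunit of the energy-sensing kinase SnRK1, averaged 5349 ± 1358 after heat and 9436 ± 2965 at 22 °C in the knockout, a log2 difference of -0.80 ± 0.41 (adjusted p = 0.27). In wild type its difference was -0.31 ± 0.41 (adjusted p = 0.75). BZIP53, a transcription factor of the low-energy response, was at 1.23 ± 0.32 in the knockout and 0.95 ± 0.32 in wild type and did not pass (adjusted p = 0.057 and 0.19). AT5G38710 was at -0.47 in the knockout and 0.14 in wild type.

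For brassinosteroids, no listed gene of hormone synthesis had a single-gene probe set. Of 23 listed signalling and response genes, the receptor gene BRL1 was too dim to be tested and EXPA8 was the 1 tested. EXPA8, a wall-loosening expansin gene, read 1248 and 682 in the heated knockout, against 3706 and 1714 in the knockout at 22 °C. In wild type it read 188 and 1292 after heat, against 1076 and 2909 at 22 °C, and the groups overlapped. Its differences of -1.42 ± 0.83 and -1.75 ± 0.83 did not pass (adjusted p = 0.35 and 0.33). Among the ubiquitin-conjugating enzymes, UBC28 was at 0.32, UBC29 at -0.47 and UBC30 at 0.09 in the knockout, and all 3 lay between 0.06 and 0.43 in wild type. None of them passed. They were the 3 of 19 listed genes for ubiquitin and its activating and conjugating enzymes with a single-gene probe set. Over all tested probe sets, limma called 3.13% higher and 3.66% lower in the knockout, and 1.84% and 0.71% in wild type. At these shares the lack of a call among 3 genes is near the background.

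The 2 genes resembled each other over the 8 arrays, with a Pearson r of 0.965 between their log2 signals. Since heated and control arrays form separate clusters, such an r mostly restates the heat difference, and it is used here only to order genes. Among 8789 other single-gene probe sets, BRH1 came in place 66 by likeness to ATL8, and ATL8 in place 41 by likeness to BRH1. The 5 genes most like ATL8 were AT1G13570 (r = 0.996), AT3G15630 (0.996), AT3G62860 (0.993), AT4G26910 (0.992) and AT2G35470 (0.992). AT3G15630 read 1152 and 824 in the heated knockout, against 9396 and 5168 in the knockout at 22 °C. In wild type it read 3071 and 836 after heat, against 6032 and 7334 at 22 °C. As with ATL8, heated wild-type replicate 1 was the highest of the heated arrays, a likeness that the choice by r favours. The heat differences of these 5 genes ran from -2.80 to -0.93 in the knockout and from -2.03 to -0.75 in wild type.

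The 5 genes most like BRH1 were AT1G32460 (r = 0.991), rps18 (0.991), AT4G12230 (0.989), AT5G06930 (0.988) and AT5G50450 (0.988). The plastid-encoded rps18, for a protein of the small ribosomal subunit of the chloroplast, read 960.1 and 530.5 in the heated knockout, against 4739 and 2662 at 22 °C. In wild type rps18 read 1231 and 718 after heat, against 2086 and 3068 at 22 °C. AT5G50450 read 180.5 and 166 in the heated knockout, against 1507 and 671 at 22 °C. Heat differences of these 5 ran from -2.36 to -1.31 in the knockout and from -1.92 to -1.19 in wild type. All but AT4G12230 ordered the control arrays exactly as BRH1 did, which the choice by r over the same arrays favours. Among the 5 genes most like ATL8, AT3G62860 alone had that order, which ATL8 shares with BRH1. Between knockout and wild type, none of the 10 genes passed at either temperature (limma adjusted p = 1 each).

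**Figure D4:**
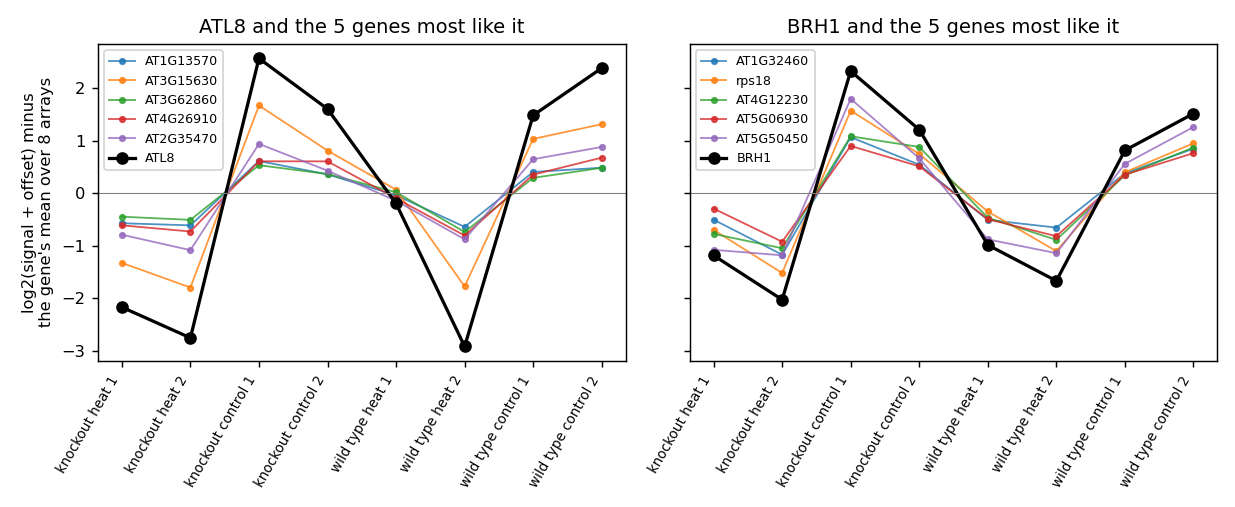
Log2(signal + 29) on each array, centred on the gene's mean over the 8 arrays, for ATL8 (left, black) and BRH1 (right, black) with the 5 genes most like each. Lines only join the arrays of a gene. The like genes follow with smaller swings, and heated wild-type replicate 1 lies above heated replicate 2 for ATL8 and its 5 like genes. Likeness was ranked on these same arrays, which favours such a shared order.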

How the data were processed

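Transcripts were measured with 8 one-colour arrays of biotin-labelled total RNA, per the labels. The authors deposited 1 linear intensity value per probe set and array; the software behind it was not given in the sources used here. All arrays have a 2% trimmed mean between 500.04 and 500.07, so the deposited scaling was kept. Titles gave the groups. For wild-type control replicate 1 the source field omits the word control, and the title was followed.

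The file holds 22810 probe sets. Left out were 64 controls and those in the dimmest 30%, with a mean signal of 61.7 or lower. Values were taken as log2(signal + 29), 29 being the 20th percentile of the deposited values. Group means were fitted over all 8 arrays, with limma 3.58.1 in R 4.3.3 and a trended prior variance, with 4 residual and 4.79 prior degrees of freedom. P-values are two-sided and were adjusted by the Benjamini-Hochberg method over all probe sets tested, with a threshold of 0.05. The fit was also run on simulated data, with noise drawn independently for each probe set and array. The replicate deviations in these data were correlated between groups, as given below, so that run cannot show how the fit handles them. No detection calls were used, and the number of arrays limits the precision.

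In the platform annotation, 13513 probe sets had 1 gene, 503 had several and 8730 were unnamed here. Symbols came from a RefSeq table, which lacked 77 of the entries. The brightest probe set stood for a locus. ATL8, BRH1 and the gene lists were chosen with earlier results of these data known. The genes named are ATL8 and BRH1, HSA32, the 5 genes most like each by Pearson r, the 4 brightest members of each list and any member that passed. Other genes in the text (PUB22, PUB23, AT3G18930, ATL63, AT2G37580 and the chromosomal neighbours) lie outside this rule and were named after their values were seen. A planned list of genes whose protein holds a RING-H2 pattern was not analysed here, and the build behind the probe annotation is not named, so no coordinates are printed; the RefSeq table (TAIR10.1) served for names and gene order. Alternatives covered the offset, the filter, normalization, moderation, a replicate block and arrays left out.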

Additional observations from a re-analysis of the deposited data

How the results depend on the processing

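Of 180 recomputed values of ATL8 and BRH1 over 18 alternatives, 166 kept their direction and stayed on the same side of the threshold or within the spread between replicates, 4 moved further and 10 changed sign. Many of the 166 differences could not change in size or sign. The filter, moderation and block settings leave a difference as it was, and so does leaving out an array of a group outside the comparison. The count of 166 is therefore no measure of robustness. None of the sign changes was in a heat difference. Leaving out 1 array in turn (a group of 1 array was assumed to vary like the others) gave ranges for ATL8 of -0.33 to 0.63 between genotypes at 22 °C, where it lay at -0.30 without wild-type control replicate 1, -2.27 to 0.45 after heat, -2.42 to 0.30 for the genotype difference of the heat response and -4.85 to -2.13 for heat in wild type. BRH1 after heat ranged from -0.70 to 0.14 between genotypes. Without both wild-type arrays of replicate 1, ATL8 was at -0.30 at 22 °C, 0.45 after heat, 0.75 for the genotype difference of the heat response and -5.30 for heat in wild type, and BRH1 was at 0.064 after heat and -3.19 for heat in wild type. The cause was not tested.

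Probe sets called for heat ranged from 230 (without knockout control replicate 1) to 2000 (without heated wild-type replicate 1) in the knockout, against 1080 with all arrays. In wild type they ranged from 160 (without wild-type control replicate 2) to 1314 (without heated wild-type replicate 1), against 406. Other ATL loci called lower ranged from 0 to 1 in each genotype. Without both wild-type arrays of replicate 1 the calls were 2424 in the knockout and 878 in wild type, with 2 (AT3G18930 and AT1G49200) and 1 (AT3G18930) other ATL loci lower, and HSA32 was the 1 call after heat and the 1 call for the genotype difference of the heat response. AT5G47610 was called higher in both genotypes under every alternative run. Knockout calls were 498 higher and 582 lower as deposited, 580 and 355 under quantile normalization, and 646 and 230 under median centring. In wild type, 293 higher and 113 lower became 385 and 47 under median centring.

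The replicate numbers did not pair the samples over all groups: replicate deviations correlated at 0.52 between knockout groups and 0.54 between wild-type groups, but at -0.39 to -0.24 between genotypes. With the replicate block the knockout had 675 calls and wild type 290. A crossed block, chosen after these deviations were seen, gave 2859 calls for heat in the knockout and 1406 in wild type, 1 each after heat and for the genotype difference of the heat response, and 1 other ATL locus (AT1G49200) lower in the knockout. Each member has a single probe set, so no second one could be tried. Signal over background limits dim probe sets, whose detection was not recorded.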

Other observations

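The genes next to ATL8 and BRH1 in the RefSeq gene order (TAIR10.1) gave few values. Of the 3 protein-coding genes on each side, those of ATL8 with a tested single-gene probe set were PUB43, a U-box ligase gene, AT1G76400 and AT1G76405. Their heat log2 differences in the knockout were -0.81, -1.28 and 0.78, and in wild type -1.01, -1.44 and 0.20, in that order. Beside BRH1, AT3G61490 was at -0.67 in the knockout and -0.87 in wild type. None of the 4 passed in limma (adjusted p from 0.11 to 0.82). Of all tested probe sets, limma called 3.13% higher and 3.66% lower in the knockout. In wild type it called 1.84% higher and 0.71% lower. At these shares the lack of a call among 4 genes is near the background.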
